A study of Mus musculus with 24 samples.

Results

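The transcripts of 8 genes that act directly below the polyoma virus middle T antigen were followed in mammary tissue of PyMT and FVB mice. They were the SRC family kinases *Src*, *Yes1* and *Fyn*, the adaptor *Shc1*, the catalytic and regulatory PI3-kinase subunits *Pik3ca* and *Pik3r1*, and the kinases *Akt1* and *Akt2*. They were chosen by name as known partners or effectors of middle T, with earlier results of these data known, and are 8 of the 37991 genes in the count table. The 24 samples were taken from mice of 6, 8, 10 or 12 weeks of age, 3 per genotype and age. PyMT samples came from mammary tumors of F1 females heterozygous for the PyMT transgene, bred from FVB/N-Tg(MMTV-PyVT)634Mul/J males and FVB females, and FVB samples from normal mammary glands of females of the same strain and age without the transgene. The methods of the study place the PyMT samples at hyperplasia (week 6), adenoma/MIN (week 8), early carcinoma (week 10) and late carcinoma (week 12). The mouse mammary tumor virus promoter drives the transgene in mammary epithelium, and tumors and normal glands also differ in the kinds of cells they hold. The transcript of the transgene itself was not analysed here.

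Middle T has no enzyme activity of its own. It sits in the membrane, binds SRC, YES and FYN together with the phosphatase PP2A, and is phosphorylated by these kinases on tyrosines that then hold SHC1 and the regulatory subunit of PI3-kinase. SHC1 leads to RAS and the MAPK cascade, while PI3-kinase makes the membrane lipid that recruits AKT, whose targets set growth, survival and glucose uptake. AKT1 is present in most cells, and AKT2 is best known for its part in the response of fat and muscle to insulin. All of these steps act on proteins, and what was measured here was the amount of transcript.

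The genes are given on the mm9 genome with the gene models of GENCODE M1. *Src* (ENSMUSG00000027646) lies at chr2:157244180-157297598 on the plus strand, *Yes1* (ENSMUSG00000014932) at chr5:32913606-32989430 on the plus strand and *Fyn* (ENSMUSG00000019843) at chr10:39088661-39285187 on the plus strand. *Shc1* (ENSMUSG00000042626) lies at chr3:89222365-89233937 on the plus strand. *Pik3ca* (ENSMUSG00000027665) lies at chr3:32296593-32367408 on the plus strand and *Pik3r1* (ENSMUSG00000041417) at chr13:102450716-102538172 on the minus strand. *Akt1* (ENSMUSG00000001729) lies at chr12:113892032-113913095 on the minus strand and *Akt2* (ENSMUSG00000004056) at chr7:28376571-28425845 on the plus strand. All 8 are protein-coding, and counts were summed over their exons, which cover 2.22% of the *Fyn* locus and 48.7% of the compact *Shc1* locus. The longest transcripts of *Src*, *Yes1*, *Fyn*, *Shc1*, *Akt1* and *Akt2* shared no stretch of 50 bases with another gene, so the kinases of a family can be told apart by their reads. *Pik3ca* shared 23 of its 8868 such stretches and *Pik3r1* 32 of 6866, and the *Pik3r1* exons overlapped those of *Gm11016* on the opposite strand over 48 of 7396 bases.

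The 250 bases before the annotated start are shown for the 3 SRC family kinases, because their transcripts moved apart, and for *Akt1* and *Akt2*, because theirs moved in opposite directions. The sequences are from RefSeq on GRCm38.p6, a later build than that of the counts, and run 5′ to 3′ on the strand of the gene. They lie at chr2:157424043-157424292 (plus strand), chr5:32610921-32611170 (plus), chr10:39369549-39369798 (plus), chr12:112674885-112675134 (minus) and chr7:27591302-27591551 (plus), those of *Akt1* and *Akt2* before the most upstream of more than 1 annotated start. Capitals mark the GC box, the letters GGGCGG on either strand.
Src: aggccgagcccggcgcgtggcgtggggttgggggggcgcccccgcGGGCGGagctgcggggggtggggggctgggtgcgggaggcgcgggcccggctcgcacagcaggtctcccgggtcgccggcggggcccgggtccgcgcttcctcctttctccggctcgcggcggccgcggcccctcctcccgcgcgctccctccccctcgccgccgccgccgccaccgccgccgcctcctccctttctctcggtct
Yes1: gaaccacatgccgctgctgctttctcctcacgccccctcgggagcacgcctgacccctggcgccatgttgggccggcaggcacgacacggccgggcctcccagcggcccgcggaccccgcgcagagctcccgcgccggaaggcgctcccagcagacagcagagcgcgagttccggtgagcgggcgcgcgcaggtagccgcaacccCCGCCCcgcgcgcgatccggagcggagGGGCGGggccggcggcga
Fyn: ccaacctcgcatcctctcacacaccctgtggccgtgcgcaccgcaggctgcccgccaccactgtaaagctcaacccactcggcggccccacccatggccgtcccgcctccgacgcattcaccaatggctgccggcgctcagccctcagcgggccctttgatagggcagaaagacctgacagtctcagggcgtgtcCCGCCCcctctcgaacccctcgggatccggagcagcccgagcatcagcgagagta
Akt1: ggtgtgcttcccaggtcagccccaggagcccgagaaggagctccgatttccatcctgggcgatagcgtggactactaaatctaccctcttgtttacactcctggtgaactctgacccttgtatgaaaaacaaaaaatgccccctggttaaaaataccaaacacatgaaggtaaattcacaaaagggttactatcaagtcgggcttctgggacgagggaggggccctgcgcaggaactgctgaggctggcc
Akt2: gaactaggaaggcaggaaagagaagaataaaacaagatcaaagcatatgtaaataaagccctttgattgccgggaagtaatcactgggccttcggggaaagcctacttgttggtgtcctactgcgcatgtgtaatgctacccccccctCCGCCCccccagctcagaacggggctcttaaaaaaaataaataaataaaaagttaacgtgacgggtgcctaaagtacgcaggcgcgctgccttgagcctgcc

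The kinase promoters were rich in G and C, with 82.8% in *Src*, 77.2% in *Yes1* and 67.2% in *Fyn*, against a median of 52.4% over 32851 promoters of the same length. The *Akt1* window held 52.0% and the *Akt2* window 48.8%. The GC box was found once each before *Src*, *Fyn* and *Akt2*, 2 times before *Yes1* and not before *Akt1*, and 32.7% of all promoters held it. Of the other letters searched on both strands, CCAAT (in 33.8% of all promoters) was found before *Fyn* and in none of the other 4 windows. CCGGAAG, the core that ETS factors bind (6.91% of all promoters), was found before *Yes1*. TATAAA (12.4%), TTTGGCGC (0.417%) and TTTCGCGC (0.256%) were in none of the 5 windows. In the windows not shown, *Pik3r1* held 4 GC boxes and *Pik3ca* and *Shc1* 1 each.

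Total counts ran from 6969375 to 13516601 per sample, with a median of 8280269. The lowest count of any of the 8 genes in any library was 88 and the highest 12390. A total of 13 libraries (6 PyMT and 7 FVB) had a packet size. In these libraries the number of genes at each count peaked between 8 and 25 counts, above a lower point before the peak. The peak was not compared with the number of genes at a count of 1. The libraries with a packet size included every PyMT library of week 6 and every FVB library of week 10. In FVB week 10 replicate 3 and PyMT week 8 replicate 2, 4.4% and 2.87% of 3799 moderately expressed genes had no count. Luminal epithelial markers were detected in every library, at a summed level of 2666 to 4899 CPM (counts scaled to the library size) in PyMT and 567 to 2366 in FVB, and 8 of the 10 were higher in PyMT, while *Krt19*, named after its value was seen, was lower. All 8 adipocyte markers (202 to 2308 CPM against 9839 to 23479), all 8 endothelial markers (87.4 to 241 against 568 to 1009) and all 8 fibroblast markers (2474 to 5480 against 6077 to 21985) were lower in PyMT, and no PyMT library reached an FVB library in the sum of any of these lists. All 8 markers of proliferating cells were higher in PyMT (819 to 1528 against 64.7 to 848). All 10 skeletal muscle markers were lower, with sums from 0 to 4223 CPM in PyMT and from 10.9 to 72353 in FVB. Of the 8 basal and myoepithelial markers 5 were lower (*Acta2*, *Myh11*, *Oxtr*, *Cnn1* and *Krt17*), of the 8 macrophage markers 3 (*Csf1r*, *Cd163* and *Mrc1*), and none of the 8 lymphocyte markers reached the level needed for a test (at most 13.7 CPM in sum).

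**Figure D1:**
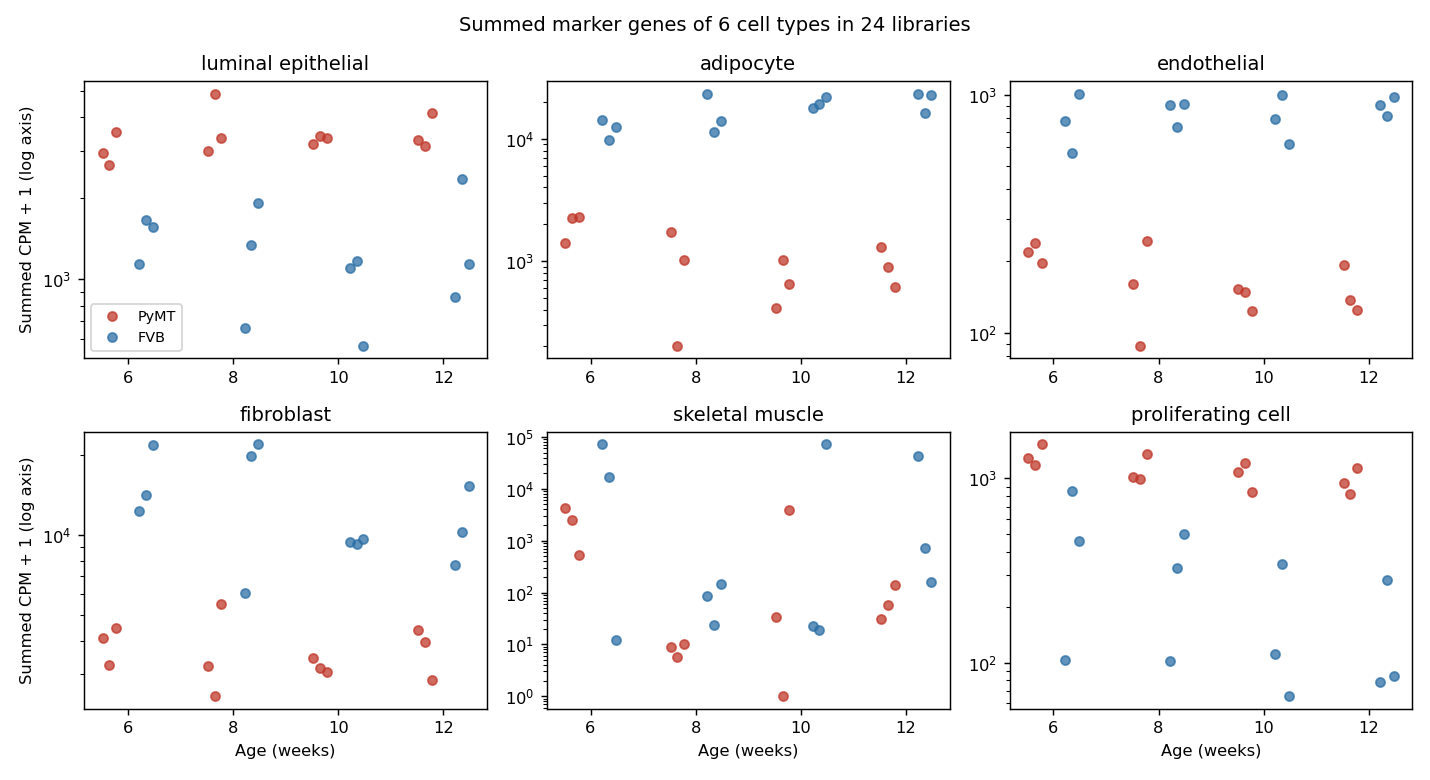
Summed CPM of marker genes of 6 cell types (log axis, 1 added) against age in weeks, one point per library, PyMT in red and FVB in blue. The luminal epithelial sums of PyMT lie above those of FVB and the adipocyte, endothelial and fibroblast sums below, without overlap, while skeletal muscle ranges up to 72353 CPM in FVB.

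The first question was whether the transcripts of the middle T effectors differ between PyMT and FVB tissue. Averaged over the 4 weeks, 7 of the 8 genes differed (adjusted p under 0.05), and they did not move together. *Src*, *Pik3r1* and *Akt1* were higher in PyMT, and *Fyn*, *Shc1*, *Pik3ca* and *Akt2* were lower. *Yes1* did not pass. The pairs *Src* and *Fyn*, *Pik3r1* and *Pik3ca*, and *Akt1* and *Akt2* each moved in opposite directions. Of all 14918 genes tested, 23.6% were called higher and 27.4% lower in the same fit, so calls were common. PyMT and FVB libraries did not overlap for *Pik3r1*, which was higher in all 12 PyMT libraries, and for *Akt2*, which was lower in all 12. Such separation was seen for 4.67% of all tested genes with PyMT higher and 7.22% with PyMT lower. In bulk tissue, fewer cells of a type and less transcript per cell cannot be told apart, which holds for each value below.

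**Figure D2:**
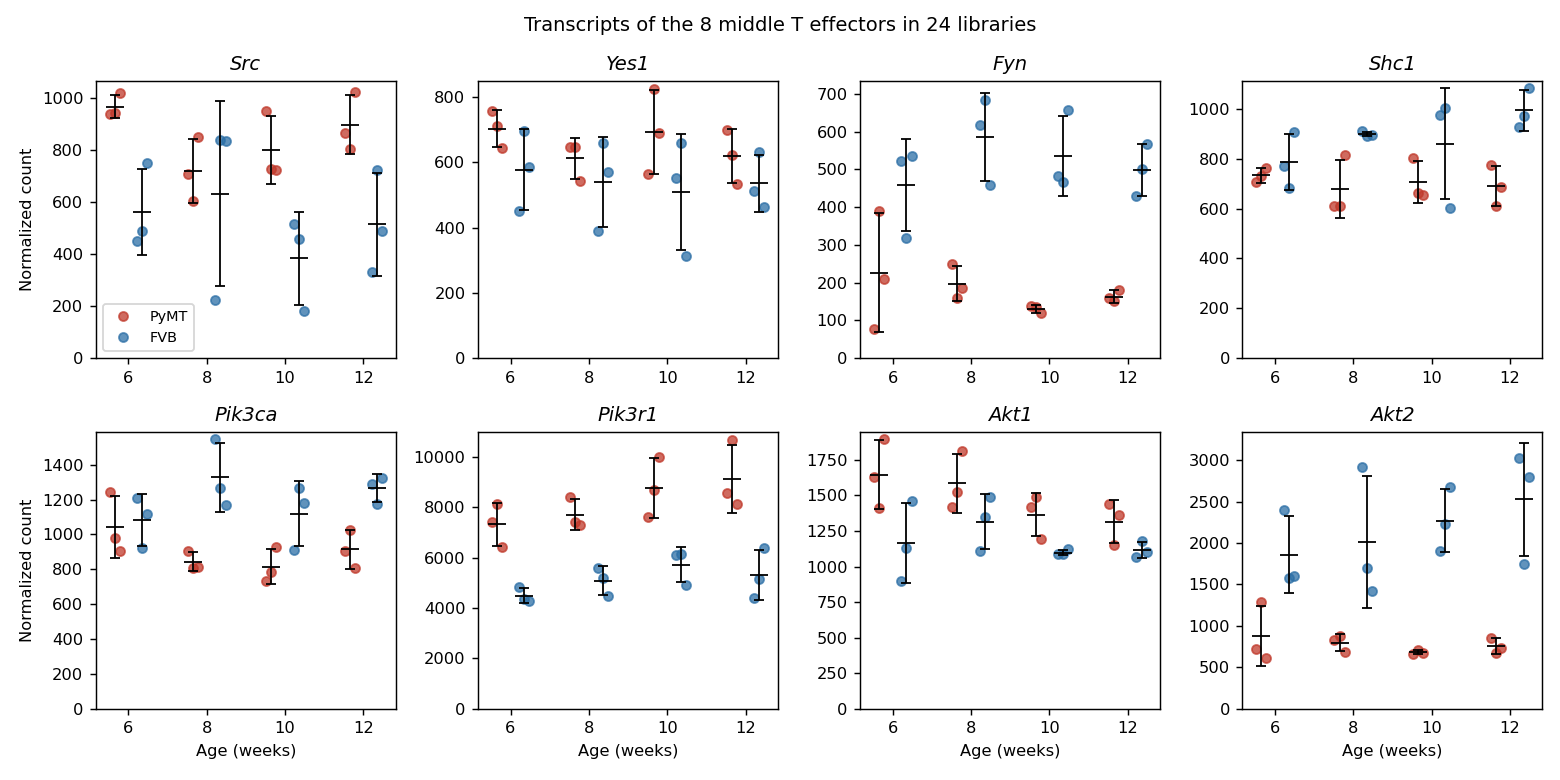
Normalized counts (counts over library size factors, axis from 0) of the 8 genes against age in weeks, one point per library, PyMT in red and FVB in blue, with the mean and SD of each group of 3 in black. The 12 PyMT points lie above all FVB points for *Pik3r1* and below all of them for *Akt2*.

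*Src*, the kinase for which the family is named, ran from 604 to 1023 normalized counts in PyMT (median 857) and from 180 to 839 in FVB (median 487). At week 6 the PyMT values were 940, 944 and 1018 and the FVB values 451, 487 and 752. At week 8 they were 708, 604 and 849 against 222, 839 and 836. At week 10 they were 950, 728 and 722 against 516, 457 and 180, and at week 12 866, 803 and 1023 against 331, 725 and 487. PyMT was above FVB without overlap at weeks 6, 10 and 12, while at week 8 FVB replicates 2 and 3 were as high as PyMT. The log2 fold change over the 4 weeks was 0.72 ± 0.20 (SE, edgeR adjusted p = 0.00438), 1.65-fold higher in PyMT. FVB varied far more than PyMT, with a mean of 523 ± 223 (SD, n = 12) against 846 ± 135 (SD, n = 12). The FVB libraries lowest in *Src*, week 10 replicate 3 (180) and week 8 replicate 1 (222), were also those lowest in luminal epithelial markers (567 and 661 CPM), and the part of epithelial content in the difference was not tested. Without libraries that had a packet size the log2 fold change was 0.67 ± 0.29 (SE) and did not pass (edgeR adjusted p = 0.101). That fit held 11 of the 24 libraries, with both genotypes only at weeks 8 and 12. It called 5298 of all tested genes, against 7610 in the main fit. The part of the smaller number of libraries in calls lost there was not tested.

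*Yes1*, a widely expressed kinase of the family, ran from 532 to 823 in PyMT (median 648) and from 313 to 697 in FVB (median 560). The groups overlapped in every week, and 4 of the 12 PyMT libraries were above all FVB libraries. Its log2 fold change was 0.29 ± 0.12 (SE, edgeR adjusted p = 0.0513), just short of the threshold. It passed when any of 9 single libraries was left out, with values of 0.31 to 0.35, namely FVB week 6 replicate 2, week 8 replicate 2, week 10 replicates 1 and 2 and week 12 replicate 2, and PyMT week 6 replicate 3, week 8 replicate 3, week 10 replicate 1 and week 12 replicate 3. The lowest FVB values, 313 and 389, came from the same libraries as the lowest of *Src*.

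*Fyn*, a kinase of the same family that is also prominent in T cells and brain, was, with *Akt2*, 1 of the 2 genes with a fitted difference of more than 2-fold. It ran from 78.3 to 390 in PyMT (median 158) and from 318 to 683 in FVB (median 512). At week 6 the PyMT values were 78.3, 390 and 209 and the FVB values 523, 318 and 534, and they overlapped through PyMT replicate 2. At week 8 they were 248, 158 and 186 against 617, 683 and 458. At week 10 they were 137, 135 and 119 against 482, 466 and 656, and at week 12 159, 150 and 181 against 430, 500 and 568. From week 8 on the groups were apart, and 11 of the 12 PyMT libraries were below every FVB library. The log2 fold change was -1.55 ± 0.18 (SE, edgeR adjusted p = 4.75e-07), 2.92-fold lower in PyMT. The endothelial and fibroblast marker sums were lower in the same libraries, the lymphocyte markers were near 0 in both (at most 5.97 CPM in PyMT and 13.7 CPM in FVB), and the part of stromal content in the difference was not tested.

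The balance among the 3 kinases was read within each library, where the scaling between libraries cancels. A ratio of a gene called higher to a gene called lower restates those calls, so its p adds no separate support. This holds for *Src* to *Fyn* and, below, for *Pik3ca* to *Pik3r1* and *Akt1* to *Akt2*. How many pairs of other genes separate in this way was not counted. The ratio of *Src* to *Fyn* ran from 2.42 to 11.9 in PyMT (median 5.35) and from 0.276 to 1.83 in FVB (median 1.03), without overlap in any week or over all 24 libraries. It was 5.39-fold higher in PyMT, a log2 difference of 2.43 (two-sided exact permutation test within weeks, p = 1.25e-05, the smallest that 160000 splits can give, adjusted p = 2.08e-05 over 5 ratios). The ratio of *Yes1* to *Fyn* was 3.78-fold higher (log2 difference 1.92, exact permutation p = 2.5e-05, adjusted p = 3.13e-05), with 1.82 to 9.55 in PyMT and 0.478 to 2.19 in FVB. The ratio of *Src* to *Yes1* differed less, by 0.51 on the log2 scale (exact permutation p = 0.00783, adjusted p = 0.00783), and its groups overlapped, with 0.885 to 1.92 in PyMT and 0.573 to 1.47 in FVB. Per kilobase of exon, *Fyn* was the lowest of the 3 in all 12 PyMT libraries and in 5 of the 12 FVB libraries.

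**Figure D3:**
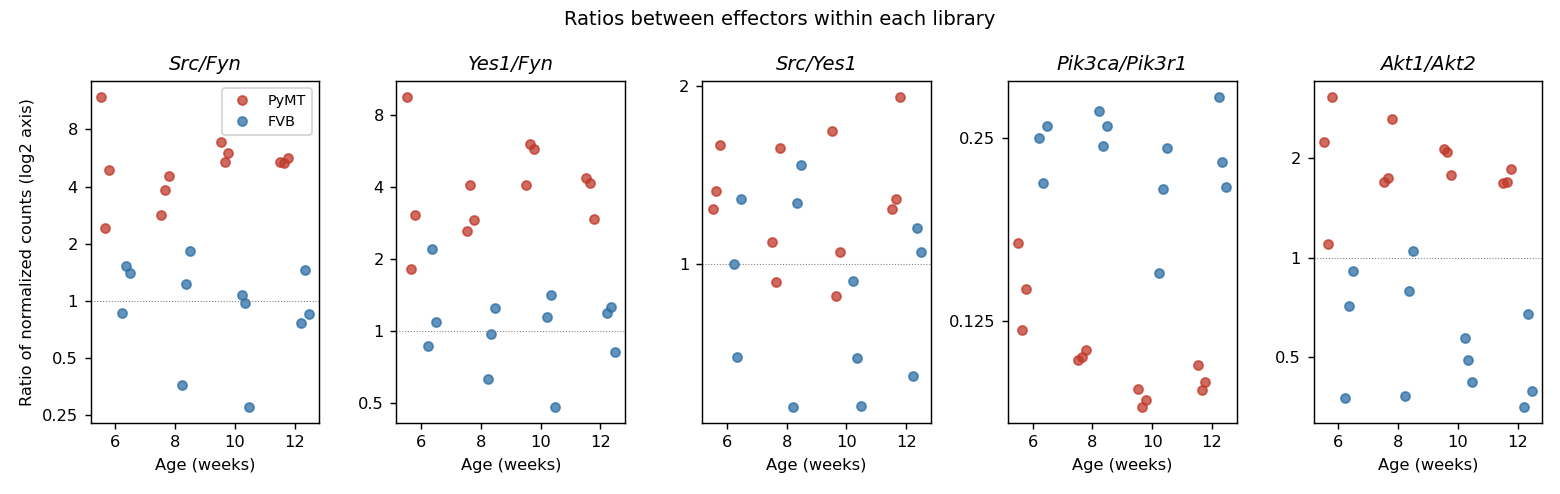
Ratios of normalized counts between pairs of the 8 genes within each library (log2 axis) against age in weeks, PyMT in red and FVB in blue; dotted lines mark a ratio of 1. PyMT lies above FVB without overlap for *Src/Fyn* and *Akt1/Akt2*, and the *Src/Yes1* groups overlap.

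*Shc1*, the adaptor that links middle T to RAS, was slightly lower in PyMT. It ran from 611 to 815 in PyMT (median 697) and from 604 to 1086 in FVB (median 908). At week 6 the values were 707, 731 and 765 against 770, 683 and 907, at week 8 611, 612 and 815 against 910, 892 and 895, at week 10 803, 662 and 653 against 974, 1004 and 604, and at week 12 774, 612 and 688 against 926, 970 and 1086. PyMT was below FVB without overlap at weeks 8 and 12, and FVB week 10 replicate 3 was the lowest of all 24 libraries. *Shc1* differed by a log2 fold change of -0.31 ± 0.09 (SE, edgeR adjusted p = 0.00749), 1.24-fold lower. It did not pass without week 8 (-0.27, edgeR adjusted p = 0.0528) or without week 12 (-0.25, edgeR adjusted p = 0.0975), nor with scaling by library size alone (-0.03), which raised the median of all tested genes from -0.03 to 0.26.

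*Pik3r1*, the regulatory subunit that binds phosphorylated middle T and stabilizes the catalytic subunit, was by far the most abundant of the 8 and was higher in PyMT in every week. PyMT values at week 6 were 7402, 8122 and 6422 and the FVB values 4832, 4363 and 4284. At week 8 they were 8398, 7427 and 7287 against 5590, 5208 and 4465. At week 10 they were 7619, 8676 and 9999 against 6091, 6136 and 4904, and at week 12 8551, 10671 and 8144 against 4404, 5133 and 6375. The lowest PyMT library (6422) was just above the highest FVB library (6375), and the medians were 8133 and 5019. Over the 4 weeks *Pik3r1* had a log2 fold change of 0.69 ± 0.09 (SE, edgeR adjusted p = 1.84e-06), 1.61-fold higher, and it was 0.85 in the libraries without a packet size.

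*Pik3ca*, the catalytic subunit and a common site of activating mutations in human breast cancer, went the other way. It ran from 735 to 1242 in PyMT (median 906) and from 913 to 1548 in FVB (median 1195). Values overlapped at week 6, at 1242, 978 and 907 against 1209, 922 and 1120. At week 8 they were 906, 810 and 815 against 1548, 1264 and 1168, at week 10 735, 782 and 927 against 913, 1266 and 1182, and at week 12 907, 1028 and 809 against 1291, 1173 and 1326. The groups were apart at weeks 8 and 12, and 8 of the 12 PyMT libraries were below all FVB libraries. Its log2 fold change was -0.39 ± 0.09 (SE, edgeR adjusted p = 0.000644), 1.31-fold lower. With scaling by library size alone it was -0.09 and did not pass (edgeR adjusted p = 0.423).

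The ratio of *Pik3ca* to *Pik3r1* ran from 0.0902 to 0.168 in PyMT (median 0.107) and from 0.15 to 0.293 in FVB (median 0.242). It was 2.12-fold lower in PyMT, a log2 difference of -1.08 (exact permutation p = 1.25e-05, the smallest possible, adjusted p = 2.08e-05), and the groups did not overlap in any single week. Over all 24 libraries only FVB week 10 replicate 1 (0.15) fell within the PyMT range, below PyMT week 6 replicate 1 (0.168).

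*Akt1* was modestly higher in PyMT. It ran from 1150 to 1898 in PyMT (median 1430) and from 899 to 1491 in FVB (median 1115). At week 6 the values were 1627, 1412 and 1898 against 899, 1132 and 1461, at week 8 1418, 1522 and 1816 against 1108, 1351 and 1491, at week 10 1417, 1487 and 1194 against 1086, 1089 and 1122, and at week 12 1441, 1150 and 1361 against 1067, 1180 and 1100. The groups were apart at week 10 only, and 4 of the 12 PyMT libraries were above all FVB libraries. The log2 fold change was 0.35 ± 0.09 (SE, edgeR adjusted p = 0.00231), 1.27-fold higher. In the libraries without a packet size it was 0.21 and did not pass (edgeR adjusted p = 0.384).

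*Akt2* had the smallest adjusted p of the 8. PyMT values at week 6 were 726, 1285 and 616 and the FVB values 2394, 1583 and 1600. At week 8 they were 835, 874 and 689 against 2918, 1701 and 1423. At week 10 they were 665, 709 and 670 against 1909, 2232 and 2670, and at week 12 857, 676 and 730 against 3030, 1748 and 2796. The highest PyMT library, week 6 replicate 2 at 1285, was below the lowest FVB library at 1423, and the other 11 PyMT libraries were at 874 or less. *Akt2* had a log2 fold change of -1.46 ± 0.14 (SE, edgeR adjusted p = 2.22e-08), 2.76-fold lower in PyMT. All 8 adipocyte markers (summed level 202 to 2308 CPM in PyMT against 9839 to 23479 in FVB), all 10 skeletal muscle markers (0 to 4223 against 10.9 to 72353, with overlap) and all 8 endothelial and 8 fibroblast markers were lower in PyMT too, and the part of fat, muscle or stromal content in the difference was not tested.

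The ratio of *Akt1* to *Akt2* separated the genotypes in every week and over all 24 libraries. It ran from 1.1 to 3.08 in PyMT (median 1.82) and from 0.352 to 1.05 in FVB (median 0.529), and was 3.46-fold higher in PyMT (log2 difference 1.79, exact permutation p = 1.25e-05, the smallest possible, adjusted p = 2.08e-05). Per kilobase of exon, *Akt1* was above *Akt2* in 12 of the 12 PyMT libraries and in 5 of the 12 FVB libraries.

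Levels of different genes were compared per kilobase of exon. In PyMT the order of the mean levels was *Pik3r1* (1112 normalized counts per kb), *Akt1* (361), *Src* (194), *Yes1* (145), *Shc1* (125), *Akt2* (109), *Pik3ca* (99.7) and *Fyn* (41.1). *Pik3r1* and *Akt1* stood apart from the gene below them in all 12 libraries, and the ranges of all later neighbours overlapped. In FVB the order was *Pik3r1* (696), *Akt2* (304), *Akt1* (286), *Shc1* (157), *Pik3ca* (132), *Src* (120), *Fyn* (119) and *Yes1* (119). There, *Pik3r1* was above *Akt2* and *Akt1* above *Shc1* without overlap, *Akt2* and *Akt1* overlapped (200 to 425 and 219 to 364 per kb), and the ranges of neighbours among the last 5 genes overlapped. *Akt2* thus stood second in FVB and sixth in PyMT. Among all tested genes, the mean level per kb of *Pik3r1* was at the 97.7th percentile, that of *Akt1* at the 91.1st and that of *Fyn* at the 54.8th.

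The second question was at which stage the differences could be seen. At week 6, with 3 samples a group, none of the 8 genes passed, although *Akt2* (log2 fold change -1.11, edgeR adjusted p = 0.0513), *Pik3r1* (0.69, edgeR adjusted p = 0.0529) and *Src* (0.78, edgeR adjusted p = 0.0623) were close to the threshold and had no overlap between groups. These 3 genes had an unadjusted p under 0.05, as did 3986 of all 14918 tested genes. DESeq2 called the same 3, among 2836 genes that it called at week 6. How many of all genes lacked overlap in a single week was not counted. At week 8 *Fyn* (-1.56, edgeR adjusted p = 0.0146) and *Akt2* (-1.32, edgeR adjusted p = 0.0257) were lower. At week 10 the same genes were lower, with -1.98 for *Fyn* (edgeR adjusted p = 0.00198) and -1.68 for *Akt2* (edgeR adjusted p = 0.000925). At week 12 *Fyn* (-1.56, edgeR adjusted p = 0.00131) and *Akt2* (-1.69, edgeR adjusted p = 0.00145) were lower and *Pik3r1* was higher (0.83, edgeR adjusted p = 0.0202), while *Src* (0.85, edgeR adjusted p = 0.0502) missed the threshold. Of all tested genes, 4.82% were called higher and 7.06% lower at week 6, 4.34% and 6.86% at week 8, 6.27% and 9.91% at week 10, and 12.5% and 15.3% at week 12. The direction of each of the 8 genes was the same in all 4 weeks, with the smallest values at week 6 for *Pik3ca* (-0.06) and *Shc1* (-0.10).

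**Figure D4:**
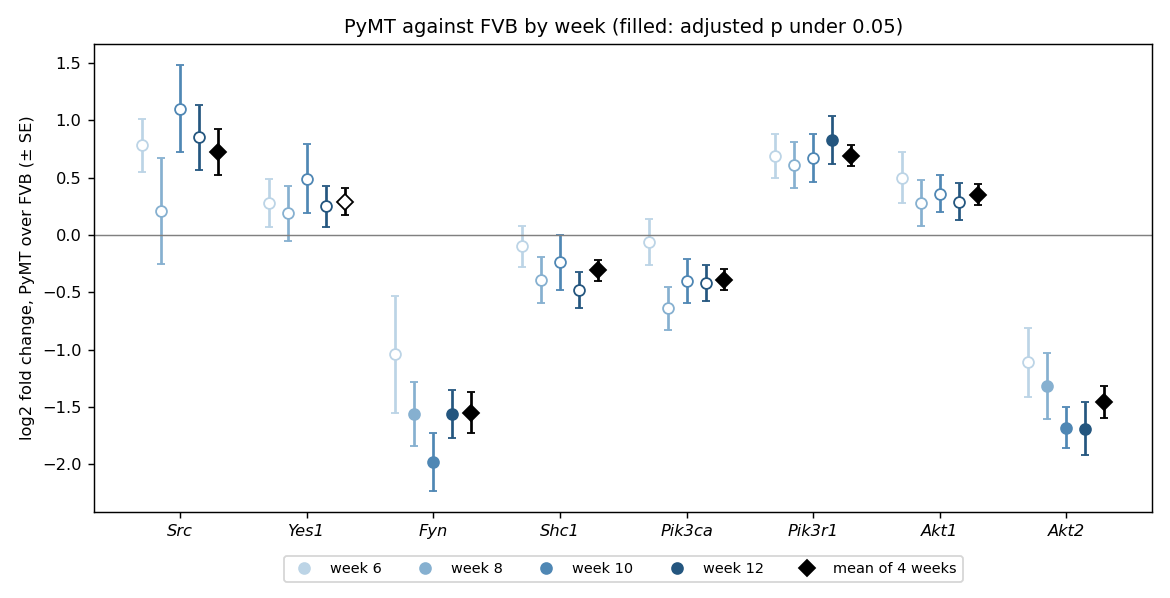
log2 fold change of PyMT over FVB for each of the 8 genes (± SE) at weeks 6, 8, 10 and 12 (blue circles) and over the 4 weeks (black diamonds); filled symbols have an adjusted p under 0.05. *Fyn* and *Akt2* lie lowest, between -1.04 and -1.98, and *Src*, *Pik3r1* and *Akt1* lie above 0 in every week.

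Single libraries decided several of the weekly calls. At week 8 neither *Fyn* nor *Akt2* passed without FVB replicate 2 (-1.43 and -1.43) or without PyMT replicate 3 (-1.53 and -1.24), and *Akt2* also did not pass without PyMT replicate 1 (-1.36) or PyMT replicate 2 (-1.37). *Src* at week 8 turned from 0.21 to -0.19 without FVB replicate 1. At week 12 *Pik3r1* did not pass without PyMT replicate 2 (0.70). Other genes that did not pass with all 6 libraries of the week passed when 1 was left out. At week 6 these were *Pik3r1* without FVB replicate 1 (0.78), *Src* without FVB replicate 3 (1.09) and *Akt2* without PyMT replicate 2 (-1.41), at week 10 *Src* (0.76) and *Pik3r1* (0.57) without FVB replicate 3, and at week 12 *Src* without FVB replicate 2 (1.15).

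None of the 8 genes changed between weeks by the test across the 4 ages, neither within PyMT (unadjusted p from 0.196 for *Fyn* to 0.94 for *Shc1*), nor within FVB (from 0.327 for *Pik3ca* to 0.848 for *Yes1*), nor in the difference between PyMT and FVB (from 0.157 for *Pik3ca* to 0.869 for *Pik3r1*). No unadjusted p of the 8 genes was under 0.05 in these tests, by edgeR or by DESeq2. Over all tested genes edgeR called 0% within PyMT, 0.0067% (1 gene) within FVB and 0% for the difference, with 597, 635 and 494 genes at an unadjusted p under 0.05, and DESeq2's likelihood ratio test called 81, 45 and 17 genes. The week-to-week values of the 8 genes therefore differed by less than these tests could call with 3 samples a group.

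The third question was how the other genes of the same pathways stood. A list of 96 genes in 7 groups, the 8 genes included, was compared over the 4 weeks, and 95 were tested. Of these, 22 were higher in PyMT, 34 lower and 39 did not pass, with a median log2 fold change of -0.05 against -0.03 for all tested genes. Of all tested genes 23.6% were called higher and 27.4% lower, so these counts are near the shares over all genes, and the counts of the 7 groups below stand beside the same shares and were not tested against them. With scaling by library size alone the split was 38 higher and 18 lower, so the direction of the lists as a whole depended on the scaling. Without the 8 genes, 19 of 87 were higher and 30 lower.

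**Figure D5:**
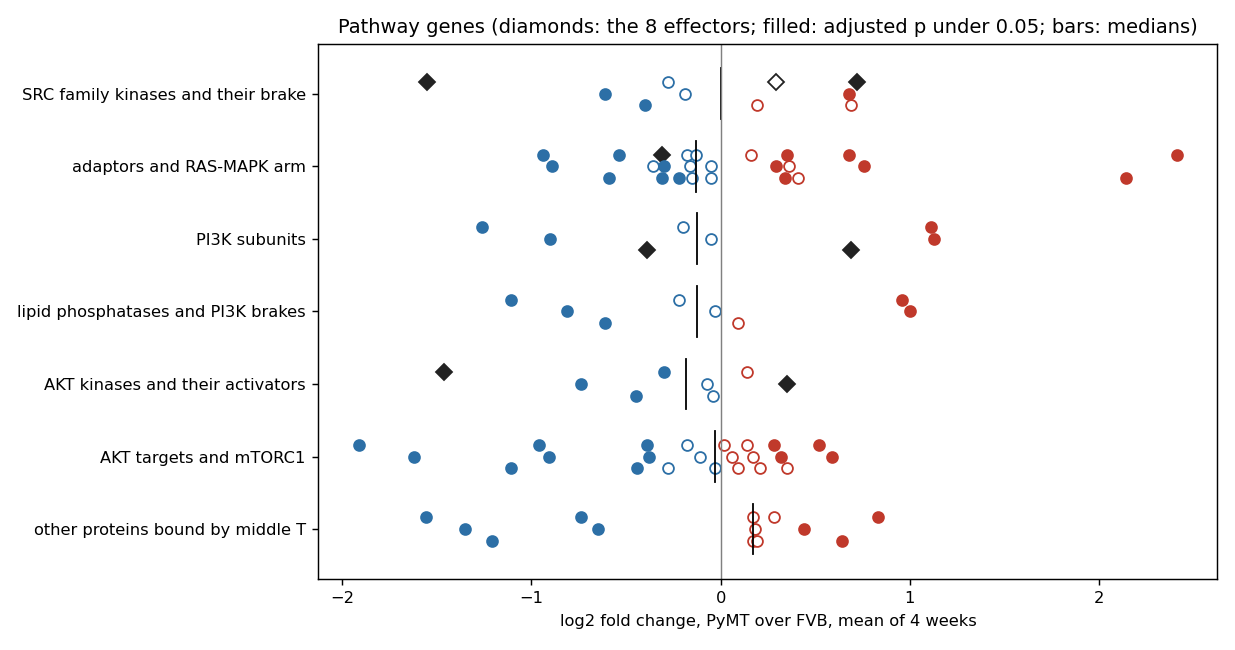
log2 fold change of PyMT over FVB over the 4 weeks for 95 pathway genes in 7 groups, one point per gene, with the 8 effectors as black diamonds, other genes in red (above 0) or blue (below 0), filled where the adjusted p is under 0.05, and a bar at the median of each group. Each group holds genes on both sides of 0, and *Hras* (2.41) and *Etv5* (2.14) lie farthest to the right.

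Among the SRC family kinases and the proteins that hold them in check, 2 of 10 were higher and 3 lower. Besides *Src* and *Fyn* these were *Lyn*, a family member of blood and epithelial cells (0.68, edgeR adjusted p = 0.000292), *Pag1*, the membrane anchor of the inhibitory kinase CSK (-0.61, edgeR adjusted p = 4.15e-05), and *Cbl*, a ubiquitin ligase that removes active tyrosine kinases (-0.40, edgeR adjusted p = 0.0202). *Lyn* ran from 678 to 1027 in PyMT and from 257 to 751 in FVB. With scaling by library size alone *Cbl* did not pass, and in the libraries without a packet size *Pag1* did not (-0.51, edgeR adjusted p = 0.062).

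In the adaptor and RAS-MAPK arm, 7 of 25 genes were higher and 8 lower. *Hras*, a RAS GTPase that SHC1 signals through, was higher without overlap (668 to 1970 against 93.3 to 283; log2 fold change 2.41 ± 0.16, SE, edgeR adjusted p = 1.91e-10). *Etv5*, an ETS factor induced by the cascade, was also higher without overlap (700 to 2144 against 173 to 450; 2.14 ± 0.19, SE, edgeR adjusted p = 8.96e-09), and so, with overlap, was *Dusp6*, a phosphatase that the cascade induces to shut off ERK (0.76, edgeR adjusted p = 0.000926). The inhibitors *Spry1* (-0.94, edgeR adjusted p = 0.000244) and *Spry4* (-0.89, edgeR adjusted p = 0.00869), which the cascade also induces, were lower, as was *Ptpn11*, the phosphatase SHP2 that carries the signal to RAS (1022 to 1591 against 1591 to 2459, -0.59, edgeR adjusted p = 1.06e-05). *Spry4* did not pass with scaling by library size alone or in the libraries without a packet size (-0.56, edgeR adjusted p = 0.214).

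Of the 8 PI3-kinase subunits 3 were higher and 3 lower. *Pik3r3*, a regulatory subunit of the same class as *Pik3r1*, was higher (332 to 1422 against 98.5 to 386, 1.13, edgeR adjusted p = 0.000103), and so was the catalytic subunit *Pik3cg* (246 to 460 against 74.2 to 374, 1.11, edgeR adjusted p = 0.000125). *Pik3cd*, the catalytic subunit best known from leukocytes (median 83.2 against 192, -1.26, edgeR adjusted p = 0.0108), and *Pik3r5*, the partner of *Pik3cg* (median 50.8 against 84.9, -0.90, edgeR adjusted p = 0.0187), were lower. *Pik3r5* did not pass with scaling by library size alone.

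Of the 8 lipid phosphatases and other brakes on PI3-kinase signaling, 2 were higher and 3 lower. *Inpp4b*, a phosphatase of the lipids below PI3-kinase, was lower (17.8 to 157 against 98.7 to 324; log2 fold change -1.11 ± 0.26, SE, edgeR adjusted p = 0.00137). The AKT phosphatases moved apart, *Phlpp1* higher without overlap (853 to 1313 against 377 to 723; 0.96, edgeR adjusted p = 2.79e-08) and *Phlpp2* lower (-0.61, edgeR adjusted p = 0.000378). *Trib3*, a pseudokinase that binds AKT, was higher (1.00, edgeR adjusted p = 0.00465). *Phlpp2* did not pass with scaling by library size alone, and *Inpp4b* did not in the libraries without a packet size (-0.91, edgeR adjusted p = 0.0741).

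Of the 8 AKT kinases and activators only *Akt1* was higher, and 4 were lower. They included, besides *Akt2*, *Mtor*, the kinase of the complex that completes AKT activation (759 to 1167 against 1200 to 2256, -0.74, edgeR adjusted p = 1.82e-05), and *Pdpk1*, the kinase that first phosphorylates AKT (-0.30, edgeR adjusted p = 0.0031). The other genes of the *Mtor* complex in the list did not pass. They were *Rictor* (-0.04, edgeR adjusted p = 0.721), *Mapkap1* (-0.07, edgeR adjusted p = 0.681) and *Mlst8* (0.14, edgeR adjusted p = 0.498). *Pdpk1* did not pass with scaling by library size alone or in the libraries without a packet size.

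Of 23 AKT targets and genes of the mTORC1 arm, 4 were higher and 8 lower. The receptor *Igf1r* (86.8 to 259 against 486 to 886; -1.91 ± 0.18, SE, edgeR adjusted p = 1.61e-08), the translation repressor *Eif4ebp1* (107 to 327 against 465 to 1142; -1.62 ± 0.18, SE, edgeR adjusted p = 2.63e-07) and the insulin receptor substrate *Irs1* (-1.11, edgeR adjusted p = 9.23e-07) were lower, the first 2 without overlap. *Cdkn1b*, the inhibitor p27 of the cell cycle (0.59, edgeR adjusted p = 3.61e-05), *Bad*, a death protein that AKT silences (0.52, edgeR adjusted p = 0.0228), and the transcription factor *Foxo3* (0.32, edgeR adjusted p = 0.02) were higher. *Bad* and *Foxo3* did not pass in the libraries without a packet size. The other FOXO genes of the list, *Foxo1* (-0.44, edgeR adjusted p = 0.029) and *Foxo4* (-0.39, edgeR adjusted p = 0.0316), were lower. Neither passed with scaling by library size alone or in the libraries without a packet size.

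Of 13 other proteins that middle T is known to bind, 3 were higher and 5 lower. *Ppp2r1b*, 1 of the 2 PP2A scaffold genes in the list, was lower (337 to 627 against 748 to 1612, -1.21, edgeR adjusted p = 7.84e-08). The other scaffold gene, *Ppp2r1a*, did not pass (0.17, edgeR adjusted p = 0.102). Nor did the catalytic subunits *Ppp2ca* (0.19, edgeR adjusted p = 0.0696) and *Ppp2cb* (0.28, edgeR adjusted p = 0.104). The 14-3-3 genes moved apart. *Ywhag* (1158 to 1888 against 2926 to 6830, -1.56, edgeR adjusted p = 1.97e-08) and *Ywhab* (1239 to 1795 against 2659 to 5663, -1.35, edgeR adjusted p = 1.42e-09) were lower without overlap, and *Ywhaz* (1505 to 2116 against 736 to 1417, 0.64, edgeR adjusted p = 0.000103), *Ywhah* (0.83, edgeR adjusted p = 1.98e-07) and *Ywhae* (0.44, edgeR adjusted p = 0.000272) were higher.

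For each of the 8 genes, the 2 tested genes with the highest Pearson correlation of log2 normalized counts over the 24 samples were looked up. These correlations hold the difference between the genotypes, so the value within the 12 PyMT and within the 12 FVB libraries is given after each. *Akt2* was most like *Chpt1*, an enzyme of phosphatidylcholine synthesis (r = 0.969, 0.753 within PyMT and 0.93 within FVB). *Fyn* was most like *Gpc6*, a glypican (0.947, 0.843 and 0.548), and *Tspan18*, a tetraspanin (0.937, 0.881 and 0.208). *Src* was most like *Ect2*, a regulator of cytokinesis (0.923, 0.504 and 0.906), and the mucin *Muc20* (0.919, 0.302 and 0.922). *Yes1* was most like the cell cycle genes *Kif15* (0.886, 0.384 and 0.947) and *Cdc6* (0.884, 0.282 and 0.967). For *Src* and *Yes1* the likeness lay more in the FVB libraries and fell when the 2 libraries farthest from the median were left out, to 0.805 for *Ect2* and 0.723 for *Kif15*. The lowest FVB value of *Ect2*, *Muc20*, *Kif15* and *Cdc6* was 0, an extreme point on the log2 scale.

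*Pik3r1* was most like the ETS factor *Etv1* (0.91, 0.45 within PyMT and 0.753 within FVB) and *Appl2*, an endosomal adaptor (0.909, 0.678 and 0.472). *Pik3ca* was most like *Pbld1* (0.882, 0.693 and 0.852) and *Pdp1*, a mitochondrial phosphatase that activates pyruvate dehydrogenase (0.861, 0.586 and 0.792). In PyMT, *Pbld1* was near the floor, with a median of 3.51 normalized counts. *Shc1* was most like the lipoprotein receptor *Scarb1* (0.863, 0.73 and 0.879) and the integrin *Itga5* (0.855, 0.802 and 0.787), and *Akt1* like *Nmral1* (0.84, 0.785 and 0.718) and *Plk4*, the kinase of centriole duplication (0.825, 0.623 and 0.751). Among the 8 genes themselves, the highest correlation was that of *Fyn* with *Akt2* (r = 0.891 over 24 samples), followed by *Pik3ca* with *Akt2* (0.771) and *Src* with *Yes1* (0.731), and the lowest that of *Src* with *Akt2* (-0.773).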

How the data were processed

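RNA of mammary tumors and normal glands was sequenced as directional, ribosomal RNA-depleted libraries, 3 for each genotype at each of 4 ages. Per the labels the reads were aligned to mm9 with GSNAP and counted per gene with HTSeq, and the authors deposited raw counts of 37991 Ensembl genes, without normalization. Symbols and exon lengths came from GENCODE M1, which held 37205 of them. Groups came from the sample labels. Replicates of a group differed by a chi-square per gene of 19.6 to 223 over 24 pairs, far more than sampling noise.

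Genes with at least 1 CPM in at least 12 samples (14918) were tested with edgeR 4.0.16 (R 4.3.3), TMM scaling, the quasi-likelihood test and Benjamini-Hochberg adjustment over all of them, with a call at an adjusted p under 0.05. The mean of the 4 weeks and the tests across weeks used all 24 samples in 8 groups, and each week its own 6 samples. Normalized counts are counts over DESeq2 1.42.0 size factors. Ratios (pseudocount 1) were tested over all 160000 exchanges of genotype labels within weeks. The alternatives were RLE factors, library size only, no filter, DESeq2, limma 3.58.1 voom with quality weights, an additive week term, a replicate block, all samples in the weekly fits, division by or removal of libraries with a packet size, and each library or week left out. The packet size of a library is the count above 5 at which its smoothed histogram of genes over counts (SD 1.5) peaks. It was given only where the peak exceeded the lowest point before it by a set margin. The fits were tested on simulated data. Depth differs by less than 2-fold between libraries, and reads without molecular identifiers are not independent molecules. Where the packet size comes from was not tested.

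The text names the 8 genes, up to 3 called genes with the largest rise and 3 with the largest fall in each pathway list, and the 2 genes most like each of the 8, except for some genes that are not reported here. The 8 genes and the lists were chosen with earlier results of these data known. Promoters are the 250 bases before the RefSeq start. Protein sequences were not used here.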

Additional observations from a re-analysis of the deposited data

How the results depend on the processing

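Over the 4 weeks the count of the 8 genes called was 5 to 8 under 38 alternatives against 7. *Fyn*, *Pik3r1* and *Akt2* were called under all 38, *Src*, *Pik3ca* and *Akt1* under 37 each and *Shc1* under 34, and *Yes1* was called under 12. Each of the 5 ratios kept its direction under 26 alternatives, and its call under those that had a test. Scaling by library size alone moved the pathway genes from 22 higher and 34 lower to 38 and 18, and turned the week 6 values of *Shc1* and *Pik3ca* to 0.16 and 0.22 and the week 10 value of *Shc1* to 0.01.

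The weekly counts moved with the fit, the libraries used and the handling of the packet size. Week 6 went from 0 genes called to 3 with DESeq2, 2 with all 24 samples in the fit, and 1 each with counts divided by the packet size, library size only and no filter, and was 0 to 1 with a library left out. Week 8 went from 2 to 4 with DESeq2 and with all 24 samples, and was 0 to 2 with a library left out. Week 10 went from 2 to 4 with DESeq2 and with counts divided by the packet size, and was 2 to 4 with a library left out. Week 12 went from 3 to 6 with DESeq2 and 5 with counts divided by the packet size. With a library left out, *Pik3ca* at week 6 ran from -0.17 to 0.07, *Shc1* at week 6 from -0.20 to 0.06 and *Src* at week 8 from -0.19 to 0.49. The cause of these moves was not tested.

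Replicate numbers came from sample names. Same-numbered PyMT and FVB samples deviated together weakly at most, with correlations from -0.0251 to 0.177 and over 0.1 in 4 of 12 pairs. These were replicate 3 at weeks 6 (0.145), 8 (0.177) and 10 (0.164), and replicate 1 at week 10 (0.116). With the replicate number as a block, 8 of the 8 genes were called over the 4 weeks, *Yes1* among them at 0.31, and *Src* was called at week 10 (1.22) and week 12 (0.92). The fit without libraries that had a packet size could draw on both genotypes only at weeks 8 and 12. It held no PyMT library of week 6 and no FVB library of week 10.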
